A study of Homo sapiens with 16 samples.

Results

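The 9 genes described here are PARP family genes, among them the targets of olaparib, and partners of these in DNA strand-break repair. They are PARP1, PARP2 and PARP3, the tankyrases TNKS and TNKS2, the ADP-ribose eraser PARG, the cofactor HPF1 and the repair partners XRCC1 and LIG3. They were picked by gene symbol from the deposited count table, by a rule that holds no measured value, although earlier results of these data were known when it was set, and all 9 were found among its 59428 genes. The study sequenced RNA of 2 ovarian carcinoma cell lines to see how gene expression changes under olaparib, an inhibitor of PARP enzymes, in cells with and without intact BRCA1. There were 4 groups of 4 replicates, 16 libraries in all: OVCAR3 with DMSO, OVCAR3 with 7.5 µM olaparib, UWB1.289 with DMSO and UWB1.289 with 3.5 µM olaparib, each kept for 96 h. DMSO is the solvent of the drug and served as the control. OVCAR3 carries intact BRCA1 and UWB1.289 a deleterious BRCA1, and each genotype is represented by a single cell line. The lines also differed in culture medium, and their olaparib groups in dose. Line, medium and BRCA1 status therefore cannot be told apart when the DMSO groups are compared, nor, together with dose, when the olaparib effects are.

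PARP1 and PARP2 bind DNA breaks and, using NAD as the substrate, attach chains of ADP-ribose to themselves and to nearby proteins. HPF1 joins their active site and directs the modification to serine residues, PARG takes the chains apart again, and the scaffold protein XRCC1 is recruited by the chains and brings the DNA ligase LIG3, which seals the nick. PARP3 attaches single ADP-ribose units and acts mainly at double-strand breaks. The tankyrases TNKS and TNKS2 are cytoplasmic and telomeric members of the same family that mark their partners, such as axin and angiomotins, for turnover. Olaparib occupies the NAD pocket of PARP1 and PARP2 and holds them on DNA. A cell that lacks BRCA1 repairs the resulting breaks poorly.

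The libraries were of the QuantSeq 3' type, which counts reads from the 3' ends of transcripts, and held between 5599571 and 7730228 counts each. Counts are given as CPM, the counts of a gene scaled to a common library size by the TMM method, a level that allows a gene to be compared between libraries but not with another gene. The main axis of variation in a principal component analysis (82.9% of the variance) separated the lines and the next (4.54%) separated olaparib from DMSO. Of 10 markers of serous carcinoma cells, all had a mean above 1 CPM in OVCAR3 and 9 in UWB1.289, where WT1 was absent (4 counts over 8 libraries). Of 12 markers of other cell types (leukocytes, endothelium, fibroblasts), 2 exceeded 1 CPM in OVCAR3 and 6 in UWB1.289, and 1 and 3 of them, respectively, had no count. Their summed raw counts were higher with olaparib without overlap, at 259 to 290 per library against 147 to 234 with DMSO in OVCAR3 and 165 to 203 against 129 to 157 in UWB1.289. In OVCAR3 most of these counts came from COL1A1 (1608 over 8 libraries). In UWB1.289 they were spread over several genes, with PTPRC the largest (357). The summed CPM of the serous markers was lower with olaparib, again without overlap, at 3356 to 3623 against 4551 to 4773 in OVCAR3 and 5864 to 7223 against 7444 to 8065 in UWB1.289. The largest serous marker was the keratin KRT18, with a mean of 1340 CPM in OVCAR3 and 3691 CPM in UWB1.289, so this sum leans on it. The part of both sets of markers in the changes under olaparib and in the differences between the lines was not tested. BRCA1 itself was detected in both lines, at a mean of 46.9 CPM in OVCAR3 (40.4 to 52.2 over 8 libraries) and 23.7 CPM in UWB1.289 (21.4 to 28.4). In bulk RNA, fewer cells expressing a gene and less of its RNA per cell cannot be told apart.

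Under olaparib, 1 of the 9 genes was called changed in OVCAR3 and 2 in UWB1.289, none by more than 2-fold. In OVCAR3 PARG rose and no other member passed the threshold, which was an adjusted p below 0.1 in edgeR's quasi-likelihood test with an average normalized count above 10. In UWB1.289 TNKS2 rose and XRCC1 fell. PARP1 and PARP2, the main targets of the drug, did not pass in either line. The single member called up in OVCAR3 stands against 15.3% of the 13031 genes tested there that were called up and 15.9% called down, and the 1 up and 1 down in UWB1.289 against 7.71% up and 6.1% down of 12748 genes. In either direction 31.2% of all genes were called in OVCAR3 and 13.8% in UWB1.289. Whether the members differ from these shares was not tested. Of all genes tested, 5.23% in OVCAR3 and 2.21% in UWB1.289 were also changed by more than 2-fold, against 0 of 9 members in both lines. At shares this low, 0 of 9 does not set the members apart. The median log2 fold change of the members was 0.02 in OVCAR3 and -0.07 in UWB1.289, beside -0.01 and -0.00436 for all genes tested, and all 9 passed the filter on low counts in every comparison. The CPM of the 4 olaparib libraries did not overlap with that of the 4 DMSO libraries for PARG and PARP1 in OVCAR3 and for TNKS2 and LIG3 in UWB1.289, so 2 of 9 members in each line, while this was the case for 25.7% of all genes tested in OVCAR3 and 14.7% in UWB1.289.

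**Figure D1:**
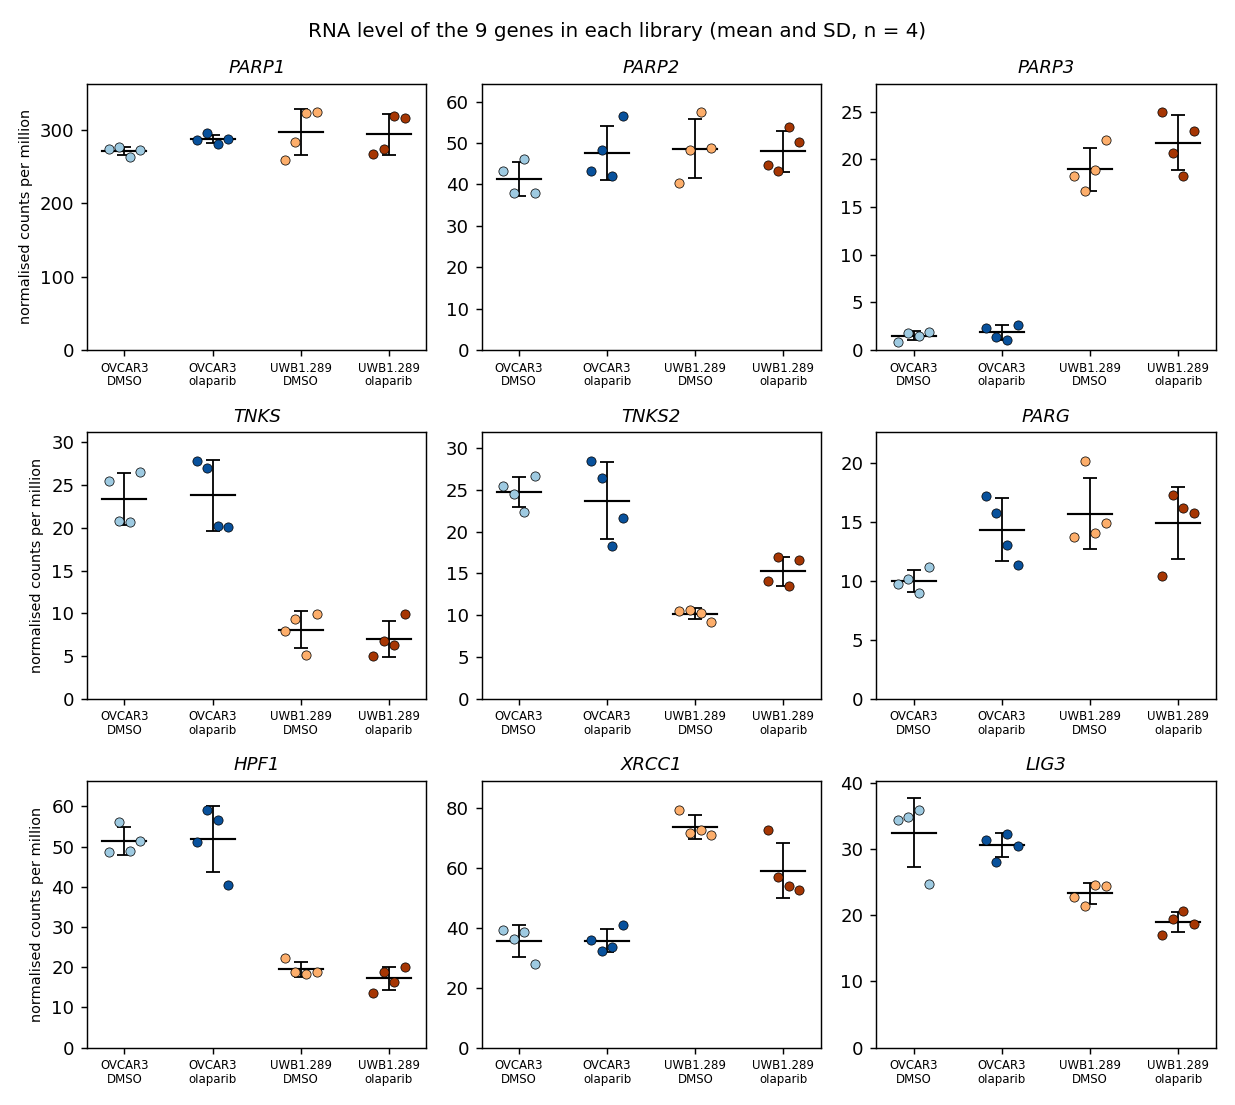
CPM after TMM scaling (y axis, linear, from 0) of each of the 9 genes in the 4 groups (x axis). Points are the 4 libraries of a group, and the bar and whiskers are mean and SD. PARP3, TNKS, TNKS2, HPF1 and XRCC1 separate the lines in every library. LIG3 does so by a narrow margin (at most 24.58 CPM in UWB1.289 and at least 24.67 in OVCAR3). For PARP3, TNKS and HPF1 the shifts with olaparib are small beside the gaps between the lines. The called changes with olaparib are the increases of PARG in OVCAR3 and TNKS2 in UWB1.289 and the decrease of XRCC1 in UWB1.289.

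PARP1 (chr1:226360210-226408154 in hg38, minus strand) makes most of the poly(ADP-ribose) that follows a DNA break. In OVCAR3 the DMSO libraries 1 to 4 had 274, 277, 264 and 273 CPM and the olaparib libraries 287, 296, 282 and 288 CPM. Every olaparib library was thus above every DMSO library, by a small margin: the mean was 272 ± 5.65 (SD, n = 4) with DMSO and 288 ± 5.79 with olaparib. The log2 fold change was 0.09 (SE 0.0661, 95% interval -0.05 to 0.22, edgeR adjusted p = 0.374), so the test across genes did not call it. In UWB1.289 the DMSO libraries had 259, 283, 323 and 325 CPM and the olaparib libraries 267, 274, 320 and 317 CPM. Replicates 1 and 2 were low and 3 and 4 high in both treatments, so the groups overlapped fully. The spread there (coefficient of variation 10.7% with DMSO and 9.43% with olaparib) exceeded that of pure counting (2.25% and 2.35%), whereas in OVCAR3 it was 2.08% and 2.01%, at the counting limit (2.40% and 2.26%). The log2 fold change in UWB1.289 was -0.01 (SE 0.0888, interval -0.20 to 0.17, edgeR adjusted p = 0.953).

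PARP2 (chr14:20343615-20357904, plus strand), which shares the break-sensing role with PARP1, had 43.2, 37.8, 46.2 and 38.01 CPM in OVCAR3 with DMSO and 43.2, 48.2, 42.1 and 56.5 CPM with olaparib. The groups overlapped, with olaparib replicate 4 the highest. The log2 fold change was 0.21 (SE 0.112, interval -0.03 to 0.44, edgeR adjusted p = 0.198). UWB1.289 had 40.2, 48.2, 57.5 and 48.7 CPM with DMSO and 44.6, 43.2, 53.9 and 50.3 CPM with olaparib, again with overlap, and a log2 fold change of -0.02 (SE 0.114, interval -0.25 to 0.22, edgeR adjusted p = 0.957).

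PARP3 (chr3:51942345-51948867, plus strand) was close to the detection limit in OVCAR3, where single libraries held 5 to 13 counts with DMSO and 7 to 19 with olaparib. Its mean there was 1.47 ± 0.465 CPM (SD, n = 4) with DMSO and 1.83 ± 0.759 CPM with olaparib, and the wide interval of the log2 fold change (0.31, -0.53 to 1.16, edgeR adjusted p = 0.624) leaves a change of up to about 2-fold undetectable at this depth. In UWB1.289 the libraries had 18.2, 16.7, 18.8 and 22.0 CPM with DMSO and 24.9, 20.6, 18.3 and 23.0 CPM with olaparib. The groups overlapped, and the log2 fold change was 0.19 (SE 0.136, interval -0.09 to 0.48, edgeR adjusted p = 0.422).

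Of the tankyrases, TNKS2 rose in UWB1.289 and TNKS was not called in either line. TNKS2 (chr10:91798426-91865475, plus strand) had 10.55, 10.7, 10.2 and 9.24 CPM with DMSO and 14.0, 16.9, 13.5 and 16.5 CPM with olaparib. The lowest olaparib library was above the highest DMSO library. The mean rose from 10.2 ± 0.650 to 15.2 ± 1.74 CPM, a log2 fold change of 0.59 (SE 0.155, interval 0.27 to 0.91, edgeR adjusted p = 0.0179). In OVCAR3 the libraries had 25.5, 24.5, 22.3 and 26.7 CPM with DMSO and 28.4, 26.4, 18.2 and 21.7 CPM with olaparib, so the highest and the lowest values were both under olaparib, and the log2 fold change was -0.06 (SE 0.139, interval -0.35 to 0.23, edgeR adjusted p = 0.789). The olaparib effect on TNKS2 differed between the lines by 0.65 on the log2 scale (SE 0.204, interval 0.23 to 1.07), which an interaction contrast over the 16 libraries called (edgeR adjusted p = 0.0467). This was the single member called for that contrast, in which 4.89% of 14243 genes were called with a higher and 5.79% with a lower effect in UWB1.289, and 3.66% with a difference over 2-fold. The call was lost when any of 4 libraries was left out, namely UWB1.289 DMSO replicate 4, UWB1.289 olaparib replicate 4, OVCAR3 DMSO replicate 4 or OVCAR3 olaparib replicate 3 (log2 difference 0.54 to 0.61, edgeR adjusted p 0.101 to 0.111), and also without the filter on low counts (0.61, edgeR adjusted p = 0.109).

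TNKS, which lies on chromosome 8 (9555912 to 9782346, plus strand), had 7.99, 9.34, 5.11 and 9.90 CPM in UWB1.289 with DMSO and 4.95, 6.76, 6.26 and 9.96 CPM with olaparib. Both groups were spread widely and overlapped (log2 fold change -0.21, SE 0.239, interval -0.70 to 0.29, edgeR adjusted p = 0.653). In OVCAR3 it had 25.5, 20.8, 20.7 and 26.5 CPM with DMSO and 27.8, 27.0, 20.2 and 20.1 CPM with olaparib, with a log2 fold change of 0.02 (SE 0.142, interval -0.27 to 0.32, edgeR adjusted p = 0.929). The ratio of TNKS2 to TNKS in UWB1.289 was 0.36 ± 0.446 with DMSO and 1.13 ± 0.316 with olaparib on the log2 scale (SD, n = 4), and this difference of 0.77 did not pass a two-sided exact permutation test (p = 0.0571, adjusted p = 0.171 over 18 ratio tests). That test takes no account of replicate numbers. In each of the 4 same-numbered pairs the ratio was higher with olaparib, at 1.45 against 0.39, 1.28 against 0.19, 1.07 against 0.96 and 0.72 against -0.10. A two-sided test that flips the signs of 4 paired differences cannot give a p below 0.1. The pairs therefore cannot decide whether the ratio changed.

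PARG (chr10:49818279-49970203, minus strand), the main enzyme that degrades poly(ADP-ribose), had 9.75, 10.2, 8.98 and 11.2 CPM in OVCAR3 with DMSO and 17.3, 15.8, 13.1 and 11.4 CPM with olaparib. All olaparib libraries were above all DMSO libraries, although replicate 4 of olaparib exceeded replicate 4 of DMSO by little. The mean rose from 10.02 ± 0.919 to 14.4 ± 2.64 CPM, a log2 fold change of 0.52 (SE 0.167, interval 0.17 to 0.87, edgeR adjusted p = 0.0282). Without OVCAR3 olaparib replicate 1, the highest library, it was 0.42 and no longer called (edgeR adjusted p = 0.105). In UWB1.289 the libraries had 13.7, 20.2, 14.0 and 14.9 CPM with DMSO and 10.4, 17.3, 16.2 and 15.8 CPM with olaparib. Replicate 2 was the highest in both treatments and the groups overlapped (log2 fold change -0.07, SE 0.172, interval -0.43 to 0.29, edgeR adjusted p = 0.858). The difference between the effects in the lines was -0.59 (SE 0.247, interval -1.09 to -0.08) with an unadjusted p of 0.0241 and an edgeR adjusted p of 0.159, so a difference between the lines was not called. The pseudogene PARGP1, a near copy of PARG on the same chromosome, was counted separately with 6 to 24 counts per library, beside 58 to 121 for PARG, and the reads of these 2 genes may be split imperfectly.

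HPF1 (chr4:169729470-169757944, minus strand) did not pass the test in either line. OVCAR3 had 48.8, 56.2, 48.8 and 51.5 CPM with DMSO and 51.1, 59.2, 56.5 and 40.6 CPM with olaparib, and the log2 fold change was 0.02 (SE 0.111, interval -0.21 to 0.25, edgeR adjusted p = 0.933). UWB1.289 had 22.3, 18.9, 18.2 and 18.7 CPM with DMSO and 13.7, 18.9, 16.2 and 20.1 CPM with olaparib, and the log2 fold change was -0.18 (SE 0.143, interval -0.48 to 0.12, edgeR adjusted p = 0.492). The groups overlapped in both lines, and the lowest value of each line was in an olaparib library (replicate 4 in OVCAR3 and replicate 1 in UWB1.289).

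XRCC1 (chr19:43543311-43580473, minus strand) fell in UWB1.289. With DMSO the libraries had 79.3, 71.4, 72.5 and 71.0 CPM, and with olaparib 72.5, 56.8, 53.8 and 52.7 CPM. Olaparib replicates 2 to 4 were below every DMSO library, while olaparib replicate 1 lay inside the DMSO range. The mean went from 73.5 ± 3.87 to 58.9 ± 9.20 CPM, a log2 fold change of -0.32 (SE 0.104, interval -0.53 to -0.10, edgeR adjusted p = 0.0572). The call was lost without DMSO replicate 1, olaparib replicate 3 or olaparib replicate 4 (log2 fold change -0.28, -0.28 and -0.27, edgeR adjusted p 0.165, 0.161 and 0.177). Replicate 1 was the highest library in both treatments, and in UWB1.289 the same-numbered libraries deviated together across genes. With the replicate number as a block the log2 fold change was -0.33 (edgeR adjusted p = 0.0139). In OVCAR3 XRCC1 had 39.3, 36.2, 38.5 and 28.0 CPM with DMSO and 35.9, 32.3, 33.6 and 41.0 CPM with olaparib, where the log2 fold change was 0.01 (SE 0.122, interval -0.24 to 0.27, edgeR adjusted p = 0.950). The difference between the lines was -0.33 (SE 0.163, edgeR adjusted p = 0.243) and was not called.

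LIG3 (chr17:34980512-35009743, plus strand), the ligase bound to XRCC1, had 22.8, 21.4, 24.6 and 24.4 CPM in UWB1.289 with DMSO and 17.0, 19.4, 20.7 and 18.7 CPM with olaparib. Every olaparib library was below every DMSO library, with means of 23.3 ± 1.52 and 19.0 ± 1.54 CPM. The log2 fold change of -0.30 (SE 0.124, interval -0.55 to -0.04) had an unadjusted p of 0.0261 and did not pass after adjustment (edgeR adjusted p = 0.148). OVCAR3 had 34.4, 34.8, 35.9 and 24.7 CPM with DMSO and 31.4, 28.1, 32.3 and 30.4 CPM with olaparib, and DMSO replicate 4 stood well below its group, in LIG3 as in XRCC1. There the log2 fold change was -0.08 (SE 0.124, interval -0.34 to 0.18, edgeR adjusted p = 0.691). The 3' end of LIG3 lies under RFFL, a gene on the opposite strand that had at most 71 counts in a library, and whether the counting used strand is not given in the sources used here. The log2 ratio of LIG3 to XRCC1 in UWB1.289 differed by 0.03 between treatments (exact permutation p = 0.886, adjusted p = 0.938).

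**Figure D2:**
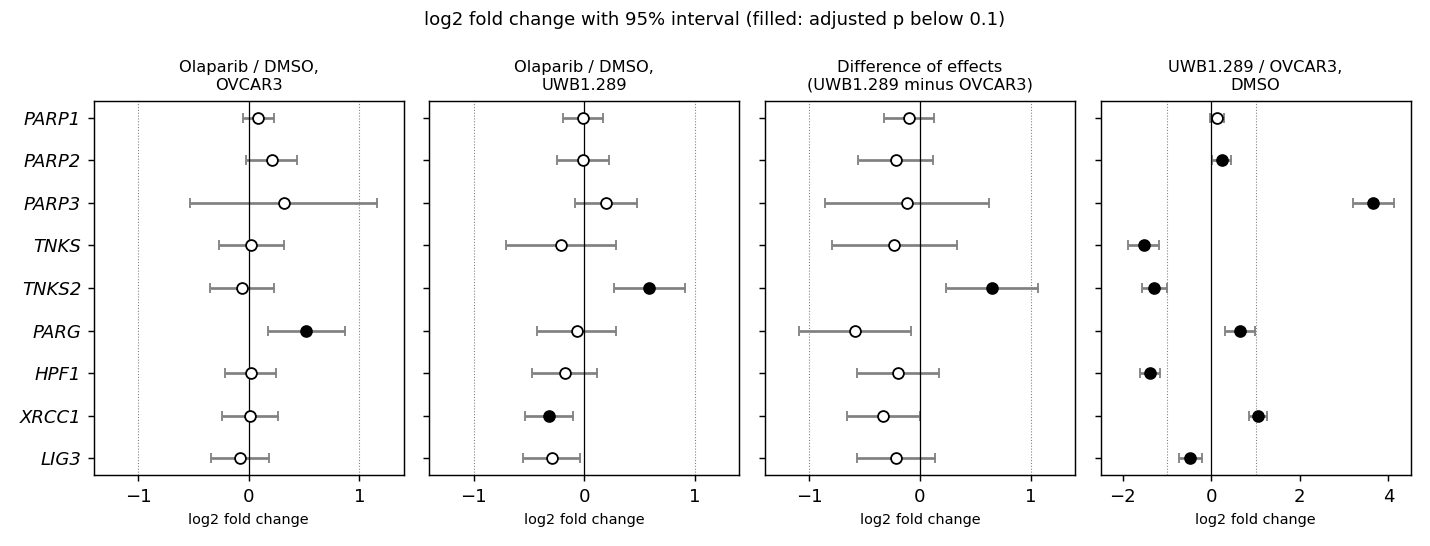
Log2 fold change with its 95% interval (x axis) for the 9 genes (y axis), from edgeR fits. The panels show olaparib in OVCAR3, olaparib in UWB1.289, the difference of the olaparib effects, and the lines in DMSO. Filled points are called at an adjusted p below 0.1: PARG (0.52) in OVCAR3, TNKS2 (0.59) and XRCC1 (-0.32) in UWB1.289, all but PARP1 between the lines, and TNKS2 (0.65) for the difference.

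Between the untreated lines the 9 genes differed far more than they did under the drug, as did the genes tested as a whole. Of all genes tested, 78.5% were called between the lines in either direction, against 31.2% under olaparib in OVCAR3 and 13.8% in UWB1.289. In DMSO 4 members were higher in UWB1.289 than in OVCAR3 (PARP2, PARP3, PARG and XRCC1) and 4 were lower (TNKS, TNKS2, HPF1 and LIG3), while PARP1 was not called. This stands beside 39.2% of 13366 genes called higher and 39.3% called lower. For 5 members (PARP3, TNKS, TNKS2, HPF1 and XRCC1) the difference was over 2-fold, as it was for 38.4% of all genes tested, and for 7 members the DMSO libraries of the lines did not overlap, against 69.4% of all genes. The median difference of the members was 0.13 on the log2 scale and that of all genes tested -0.02.

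PARP3 differed most, with 19.0 ± 2.25 CPM (SD, n = 4) in UWB1.289 and 1.47 ± 0.465 CPM in OVCAR3, a log2 difference of 3.66 (SE 0.230, interval 3.19 to 4.13, edgeR adjusted p = 7.12e-15). XRCC1 was at 73.5 ± 3.87 CPM in UWB1.289 and 35.5 ± 5.20 CPM in OVCAR3 (log2 difference 1.05, edgeR adjusted p = 1.05e-10), and its partner LIG3 went the other way, at 23.3 ± 1.52 against 32.5 ± 5.23 CPM (-0.48, edgeR adjusted p = 0.00109). PARG was higher in UWB1.289 by 0.64 (edgeR adjusted p = 9.7e-04). Both tankyrases were lower in UWB1.289: TNKS at 8.09 ± 2.14 against 23.4 ± 3.05 CPM (log2 difference -1.53, edgeR adjusted p = 2.92e-09) and TNKS2 at 10.2 ± 0.650 against 24.7 ± 1.85 CPM (-1.29, edgeR adjusted p = 1.59e-09). HPF1 was also lower, at 19.5 ± 1.88 against 51.3 ± 3.50 CPM (-1.39, SE 0.109, edgeR adjusted p = 1.25e-12). PARP2 was called with a small difference of 0.23 (SE 0.107, interval 0.01 to 0.45, edgeR adjusted p = 0.0508), and its libraries overlapped between the lines. That call was lost without UWB1.289 DMSO replicate 3 or OVCAR3 DMSO replicate 2 or 4. PARP1 had a difference of 0.13 (SE 0.0730, interval -0.02 to 0.28, edgeR adjusted p = 0.111) and was called without UWB1.289 DMSO replicate 1 or 2 (up to 0.20).

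Ordered by group mean, PARP3 and XRCC1 ran from OVCAR3 to UWB1.289 and TNKS and HPF1 from UWB1.289 to OVCAR3, and in these 4 genes the groups of a line overlapped while the lines did not. TNKS2 climbed from UWB1.289 with DMSO over UWB1.289 with olaparib to the OVCAR3 groups, without overlap between these steps, so that its level under olaparib in UWB1.289 remained below every OVCAR3 library. LIG3 ran from UWB1.289 with olaparib over UWB1.289 with DMSO to OVCAR3, where the groups overlapped. For PARG and PARP1 OVCAR3 with DMSO was the lowest group and did not overlap with OVCAR3 with olaparib, the next in order, but the lowest UWB1.289 libraries reached into its range for PARP1 and, with olaparib, for PARG. PARG under olaparib in OVCAR3 (14.4 ± 2.64 CPM) thus lay in the range of UWB1.289 (15.7 ± 3.02 with DMSO, 14.9 ± 3.07 with olaparib). The 4 groups of PARP2 all overlapped with their neighbours.

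Ratios between members within a library address whether partners differed in parallel. The log2 ratio of HPF1 to PARP1 was -2.40 ± 0.0794 in OVCAR3 and -3.91 ± 0.278 in UWB1.289 (DMSO, SD, n = 4), a difference of -1.51. That of LIG3 to XRCC1 was -0.13 ± 0.0649 and -1.65 ± 0.129, a difference of -1.52, and that of PARP3 to PARP1 was -7.30 ± 0.425 and -3.95 ± 0.138. PARG to PARP1 differed by 0.50. These 4 ratios did not overlap between the lines in any library, and each had p = 0.0286 in the two-sided exact permutation test, the smallest that 4 against 4 libraries allow (adjusted p = 0.129 over the 18 ratio tests, so none passed). Under olaparib the ratio of PARG to PARP1 in OVCAR3 went from -4.72 ± 0.109 to -4.31 ± 0.256 with overlap between the groups (exact permutation p = 0.0571, adjusted p = 0.171).

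**Figure D3:**
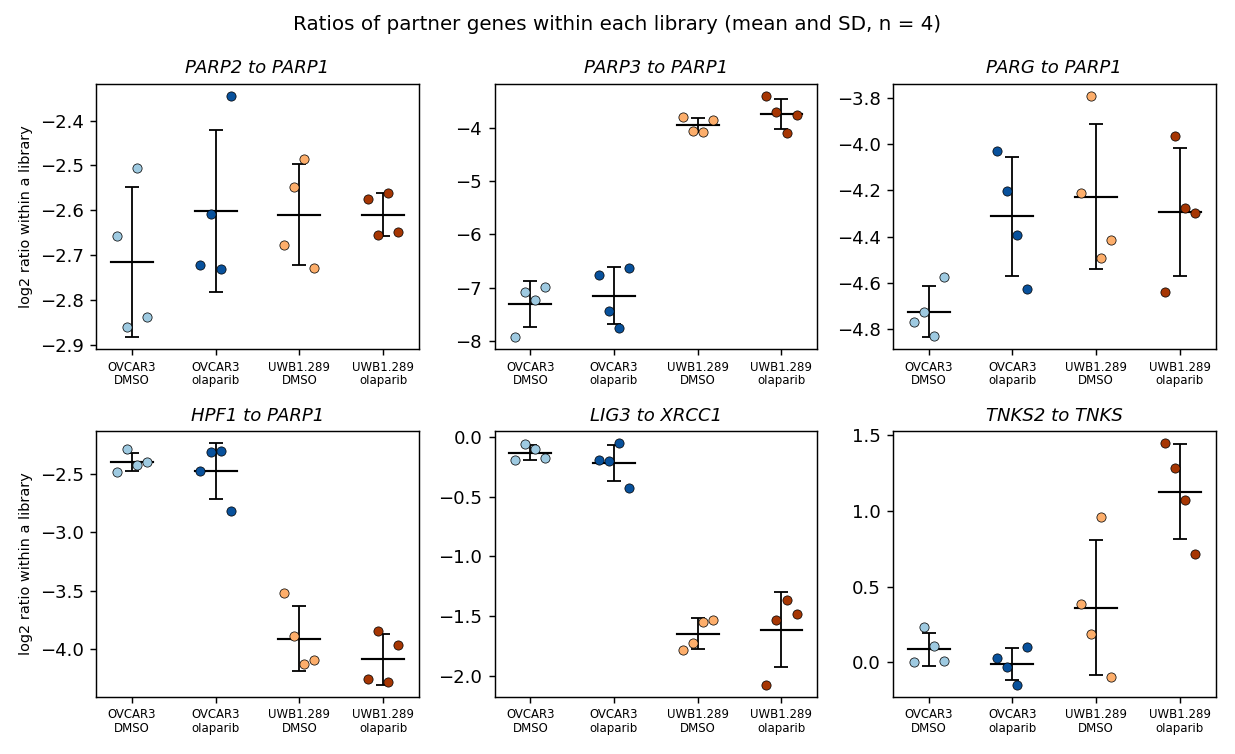
Log2 ratio of the CPM of paired members (y axis) in each library of the 4 groups (x axis), with mean and SD. LIG3 to XRCC1, HPF1 to PARP1 and PARP3 to PARP1 separate the lines in all libraries, and the largest shift with olaparib is that of TNKS2 to TNKS in UWB1.289 (0.77), where the groups overlap.

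The 4 members that differed by over 2-fold between the lines and had an entry in the promoter table of RefSeq (assembly GRCh38.p14) are PARP3, HPF1, TNKS2 and XRCC1. Their 250 bases upstream of the annotated start are printed 5′ to 3′ on the strand of the gene, to show the control regions of the genes with the largest differences. Capitals mark matches, on either strand, to any of 6 short motifs: the GC box GGGCGG, the CCAAT box CCAAT, the TATA box TATAAA, the ETS core CCGGAAG, the NRF1 half-site TGCGCA and the E-box CACGTG.
PARP3, chr3:51942113-51942362, plus strand: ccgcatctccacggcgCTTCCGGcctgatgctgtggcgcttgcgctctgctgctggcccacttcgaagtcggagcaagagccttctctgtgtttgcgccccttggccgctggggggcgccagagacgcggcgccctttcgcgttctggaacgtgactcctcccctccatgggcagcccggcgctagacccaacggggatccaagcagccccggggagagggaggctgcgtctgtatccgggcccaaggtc
HPF1, chr4:169757945-169758194, minus strand: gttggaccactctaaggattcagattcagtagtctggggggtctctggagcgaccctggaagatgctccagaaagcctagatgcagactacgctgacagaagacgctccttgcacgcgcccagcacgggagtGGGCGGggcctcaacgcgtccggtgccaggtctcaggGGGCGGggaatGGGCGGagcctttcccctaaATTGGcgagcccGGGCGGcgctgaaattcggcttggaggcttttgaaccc
TNKS2, chr10:91798176-91798425, plus strand: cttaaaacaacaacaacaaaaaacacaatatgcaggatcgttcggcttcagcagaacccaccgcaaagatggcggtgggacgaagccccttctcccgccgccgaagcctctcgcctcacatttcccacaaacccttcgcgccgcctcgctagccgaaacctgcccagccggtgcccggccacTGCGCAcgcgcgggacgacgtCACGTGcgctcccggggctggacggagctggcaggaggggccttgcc
XRCC1, chr19:43575528-43575777, minus strand: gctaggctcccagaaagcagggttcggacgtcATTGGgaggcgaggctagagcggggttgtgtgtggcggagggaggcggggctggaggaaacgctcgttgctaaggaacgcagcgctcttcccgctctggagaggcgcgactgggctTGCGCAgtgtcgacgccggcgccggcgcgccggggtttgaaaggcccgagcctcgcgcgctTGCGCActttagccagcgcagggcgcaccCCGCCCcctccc

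None of the 4 holds the TATA box, which is found in 10.7% of the 35116 promoter windows of the same length. HPF1 has 4 GC boxes, a motif that 42.6% of all windows hold at least once, and 1 CCAAT box on the reverse strand (32.0% of windows). XRCC1 has 1 GC box and 1 CCAAT box, both on the reverse strand, and 2 NRF1 half-sites (6.89% of windows). TNKS2 has 1 NRF1 half-site and 1 E-box (6.34% of windows), and PARP3 only 1 ETS core, on the reverse strand (8.52% of windows). All 4 are rich in CpG, with 23 in PARP3, 17 in HPF1, 26 in TNKS2 and 30 in XRCC1, against a median of 11 over all windows. These traits do not set the 4 apart from the other members with an entry. PARP1 (26), PARG (26), LIG3 (21) and PARP2 (14) also exceed the median, and none of them holds the TATA box. Such letters describe the sequence and are no evidence that a factor binds there. The annotated start used by RefSeq for XRCC1 lies inside the span that GENCODE gives the gene.

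By their pattern over the 16 libraries, the genes most like PARP1 were YY1, TAF2 and DHX36, whose log2 CPM, each centred on its own mean, differed from that of PARP1 by a root mean square of 0.0718, 0.0766 and 0.0799 among 14243 genes. PARP2 was closest to NMT1 (0.117), STAU1 (0.119) and CSNK1A1 (0.123). PARP3 was closest to MLKL (0.273), GPX1 (0.317) and APBA2 (0.319), a looser likeness than for the others. For PARP1 and PARP2 this means genes that stayed nearly level in all groups.

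Around the 9 genes, 6 lists describe the pathway: base excision and single-strand break repair, end joining, the other PARP family genes, the enzymes that remove or read ADP-ribose, NAD synthesis and use, and the partners of tankyrase. Counts for these lists are read against all genes tested, of which 15.3% rose and 15.9% fell with olaparib in OVCAR3 and 7.71% rose and 6.1% fell in UWB1.289, while 39.2% were higher and 39.3% lower in UWB1.289 than in OVCAR3 in DMSO. In base excision and single-strand break repair, 21 genes were tested. Under olaparib none rose in either line, 2 fell in OVCAR3 (15.9% of all genes) and 3 fell in UWB1.289 (6.1% of all genes), with a median log2 fold change of -0.02 and -0.13. In OVCAR3 these were the DNA glycosylases NEIL1 (-0.89, edgeR adjusted p = 0.0573) and NTHL1 (-0.35, edgeR adjusted p = 0.0410). In UWB1.289 they included the glycosylase MPG (-0.47, edgeR adjusted p = 0.0236) and the sliding clamp PCNA (104 ± 4.73 to 80.3 ± 5.04 CPM, -0.37, edgeR adjusted p = 0.00661). In DMSO 7 of the 21 were higher and 8 lower in UWB1.289, among them PCNA (1.294), NTHL1 (-1.67) and NEIL2 (-1.53), and LIG1 (-0.50, edgeR adjusted p = 0.0709) and PCNA (-0.46, edgeR adjusted p = 0.0800) had a lower olaparib effect in UWB1.289 than in OVCAR3.

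Of 11 end-joining genes, 3 rose and 1 fell in OVCAR3, where 15.3% and 15.9% of all genes did, and none rose and 1 fell in UWB1.289, where 7.71% and 6.1% did. The 4 called in OVCAR3 are a share near that of all genes (31.2% in either direction). The increases were POLQ, the polymerase of microhomology-mediated joining (23.1 ± 3.42 to 31.7 ± 3.76 CPM, log2 fold change 0.46, edgeR adjusted p = 0.0132), PRKDC, the catalytic subunit of DNA-PK (159 ± 11.1 to 206 ± 19.1 CPM, 0.38, edgeR adjusted p = 0.00215), and PAXX (0.30, edgeR adjusted p = 0.0485). The olaparib effect on PRKDC was lower in UWB1.289 than in OVCAR3 (log2 difference -0.50, edgeR adjusted p = 0.00987). XRCC5, which encodes the Ku80 end-binding subunit, fell in both lines. In UWB1.289 it went from 348 ± 23.2 to 277 ± 6.36 CPM (-0.33, edgeR adjusted p = 0.00646), and in OVCAR3 its log2 fold change was -0.21 (edgeR adjusted p = 0.0274). The difference between these effects was not called (-0.12, edgeR adjusted p = 0.529). Between the lines 5 were higher and 5 lower in UWB1.289, with NHEJ1 (-1.94), POLL (-1.29) and DCLRE1C (1.15) the largest. The fold of NHEJ1 rests on 4 to 17 counts per library in UWB1.289 with DMSO.

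The other PARP family genes were, of the 6 lists, the one with the largest median shift in UWB1.289, where 6 of 11 rose (7.71% of all genes), none fell and the median log2 fold change was 0.40. PARP9 rose from 21.0 ± 3.33 to 94.4 ± 13.1 CPM (2.17, edgeR adjusted p = 2.12e-11), PARP14 from 95.1 ± 9.39 to 365 ± 21.9 CPM (1.94, edgeR adjusted p = 2.39e-13) and PARP10 from 3.51 ± 0.729 to 13.3 ± 3.61 CPM (1.92, edgeR adjusted p = 3.66e-06). These 3 are known as interferon-responsive PARPs that attach single ADP-ribose units or have little activity of their own. In OVCAR3 1 of 10 rose, PARP14 (212 ± 21.1 to 287 ± 23.4 CPM, 0.44, edgeR adjusted p = 5.43e-04). The effect was larger in UWB1.289 for 5 of 11, including PARP9 (1.99, edgeR adjusted p = 2.58e-10), PARP14 (1.50, edgeR adjusted p = 7.22e-10) and PARP10 (1.33, edgeR adjusted p = 0.0439). In DMSO 6 were higher and 5 lower in UWB1.289. TIPARP (1.72) was higher and PARP9 (-2.16) lower, and PARP11, with 20 to 42 counts per library in UWB1.289, had 0 to 4 in OVCAR3, too few for a firm fold. Under olaparib in UWB1.289 the mean of PARP9 was close to that of OVCAR3 with DMSO (93.2 ± 8.40 CPM).

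Among the enzymes that remove or read ADP-ribose, apart from PARG, 1 of 11 rose and 5 fell in OVCAR3 (15.3% and 15.9% of all genes), while 1 of 10 rose and 1 fell in UWB1.289 (7.71% and 6.1%). The mono-ADP-ribose hydrolases MACROD2 (15.2 ± 2.06 to 5.04 ± 1.39 CPM, log2 fold change -1.58, edgeR adjusted p = 7.27e-06) and MACROD1 (10.2 ± 2.11 to 4.93 ± 1.05 CPM, -1.03, edgeR adjusted p = 0.00138) fell by over 2-fold in OVCAR3, opposite to PARG, and OARD1, which removes ADP-ribose from glutamate, fell as well (-0.47, edgeR adjusted p = 0.0235). In UWB1.289 MACROD2 had 22.1 ± 4.55 CPM with DMSO and 19.7 ± 1.36 with olaparib, and MACROD1 22.3 ± 2.12 and 22.7 ± 3.01. The effect differed between the lines for both (1.42, edgeR adjusted p = 2.73e-04, and 1.06, edgeR adjusted p = 0.00445). ADPRS, also known as ARH3, which takes the last unit off serine and so reverses the mark that HPF1 directs, rose in UWB1.289 (41.4 ± 1.46 to 58.2 ± 6.66 CPM, 0.49, edgeR adjusted p = 0.00296) and had a higher effect there than in OVCAR3 (0.60, edgeR adjusted p = 0.00870). NUDT16 fell in both lines, by -0.40 in OVCAR3 (edgeR adjusted p = 0.00233) and -0.33 in UWB1.289 (edgeR adjusted p = 0.0803). Its effects were not called different (0.07, edgeR adjusted p = 0.837). In DMSO 4 of 11 were higher and 5 lower in UWB1.289, with ADPRHL1 (-2.05), NUDT5 (2.02) and NUDT16 (-1.18) the largest. ADPRHL1 had 1 to 10 counts per library in UWB1.289 with DMSO, too few for a firm fold.

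In NAD metabolism 2 of 11 rose and 1 fell in OVCAR3, near the shares of all genes (15.3% and 15.9%), and 2 of 12 rose and 1 fell in UWB1.289 (7.71% and 6.1% of all genes). NAMPT, the rate-limiting enzyme of NAD salvage, rose in both lines, from 29.6 ± 3.17 to 51.8 ± 4.60 CPM in OVCAR3 (0.81, edgeR adjusted p = 1.4e-05) and from 44.2 ± 3.17 to 56.4 ± 3.83 CPM in UWB1.289 (0.35, edgeR adjusted p = 0.0254), with a smaller effect in UWB1.289 (-0.46, edgeR adjusted p = 0.0460). NMRK1, the kinase for nicotinamide riboside, fell in both (-0.71 and -0.70, edgeR adjusted p = 0.0524 and 0.0738). QPRT rose slightly in OVCAR3 (0.18, edgeR adjusted p = 0.0995). NNMT, which methylates nicotinamide and so takes it out of salvage, rose in UWB1.289 from 24.8 ± 3.31 to 67.8 ± 2.82 CPM (1.45, edgeR adjusted p = 1.78e-09). In OVCAR3 with DMSO it had at most 1 count per library, so UWB1.289 was at least 52.5-fold higher (against a floor of 3 counts per library). In DMSO 4 of 12 were higher and 3 lower in UWB1.289, among them QPRT (1.72) and NMNAT2 (-2.34).

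Of the tankyrase partners, none rose in either line, 3 of 12 fell in OVCAR3 (15.9% of all genes) and 2 of 11 fell in UWB1.289 (6.1% of all genes). AMOT, an angiomotin that binds YAP, fell in both lines, from 125 ± 17.4 to 45.9 ± 5.88 CPM in OVCAR3 (log2 fold change -1.44, edgeR adjusted p = 7.91e-09) and from 40.1 ± 13.0 to 26.8 ± 8.29 CPM in UWB1.289 (-0.58, edgeR adjusted p = 0.0779), and the effects differed (0.86, edgeR adjusted p = 0.0348). Its relative AMOTL2 (-0.41, edgeR adjusted p = 0.00148) and the spindle protein NUMA1 (-0.37, edgeR adjusted p = 0.00170) fell in OVCAR3, and the telomere protein TERF1 fell in UWB1.289 (-0.30, edgeR adjusted p = 0.0333). AMOTL2 also differed between the lines in its effect (0.36, edgeR adjusted p = 0.0884). In DMSO 2 of 12 were higher and 6 lower in UWB1.289, and the largest differences were those of AXIN2 (-2.65), AMOT (-1.65) and AMOTL2 (-1.36). AXIN2 had 1 to 10 counts per library in UWB1.289 with DMSO, too few for a firm fold.

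**Figure D4:**
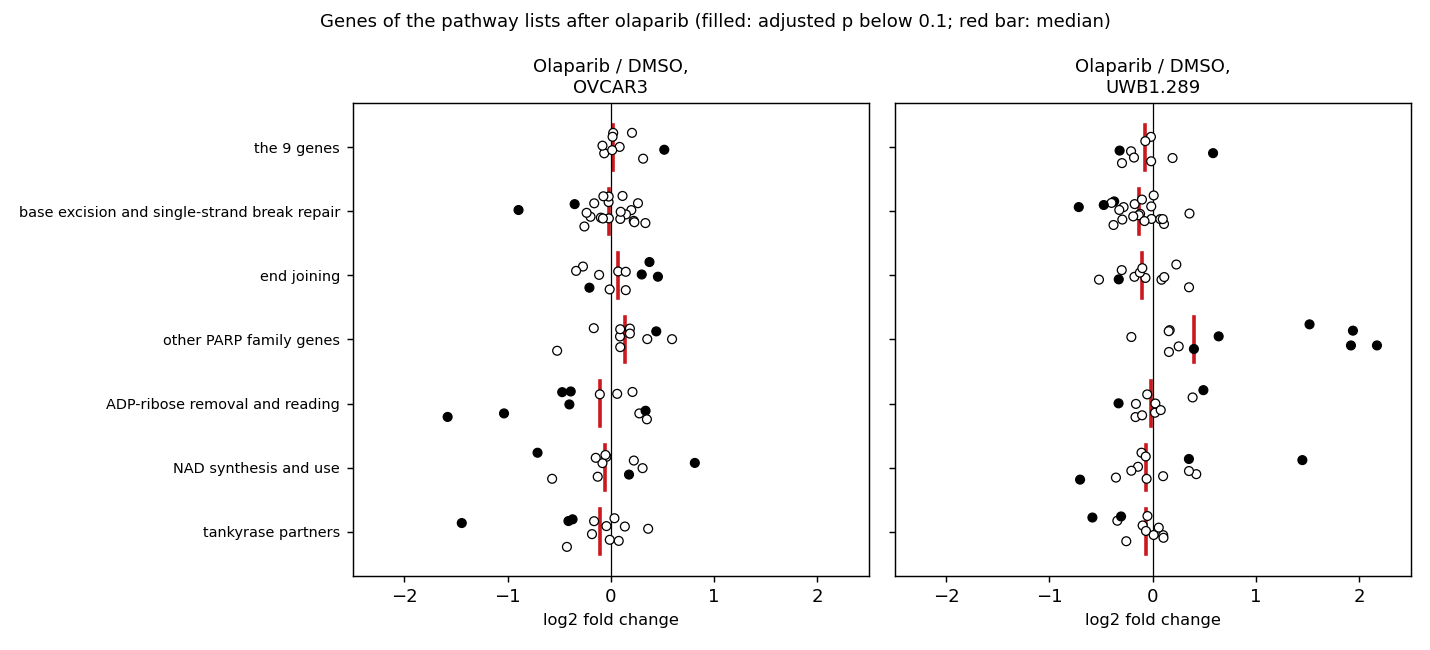
Log2 fold change under olaparib (x axis) of each tested gene of the 6 pathway lists (y axis), in OVCAR3 and UWB1.289. Filled points are called at an adjusted p below 0.1, red bars are medians, and the top row holds the 9 members. The other PARP family genes are shifted to the right in UWB1.289 (6 of 11 called up, median 0.40), and the ADP-ribose removal list holds 5 called decreases in OVCAR3.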

How the data were processed

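Whole-number counts per gene, deposited by the authors, were used for all 16 QuantSeq 3' mRNA libraries. According to the study's methods the authors used BBDuk for trimming, STAR 2.7.9a (2-pass, hg38) for alignment of single-end reads and featureCounts 2.0.0 for counting on GENCODE genes. The treatment of strand and of multi-mapped reads is not given in the sources used here. Total counts ranged from 5599571 to 7730228 (median 6413979.5), and 29329 of 59428 genes had at least 1 count. Intervals on single counts cover counting error only. No pair of the 24 pairs of libraries within groups was identical. The labels do not say that replicates are separate cultures, so p-values measure the spread between these libraries, which may be technical.

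Tests were made with the quasi-likelihood method of edgeR 4.0.16 in R 4.3.3 after TMM scaling and filterByExpr, with p-values adjusted by Benjamini-Hochberg over all genes tested, within each line for olaparib against DMSO, between the lines on the 8 DMSO libraries, and over all 16 libraries for the difference of the effects. A gene was called at an adjusted p below 0.1 and an average normalized count above 10, and changes over 2-fold were counted separately. Scripts were tested on simulated data. Ratios of members were compared with two-sided exact permutation tests. CPM is TMM-scaled, with a prior count of 2 for log values. The members, lists and tests were chosen with earlier results of these data known. The text names all 9 members, BRCA1, from each list and comparison up to 3 called genes with the largest change, and the 3 genes most like PARP1, PARP2 and PARP3. ARH3 and Ku80 are other names of genes under that rule. A gene that this rule would name is not reported here. WT1, KRT18, COL1A1, PTPRC, PARGP1 and RFFL were named after their values were seen.

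The DMSO and olaparib libraries of UWB1.289 with the same replicate number deviated together from their group means (correlation 0.133 to 0.224 over 9540 genes, and -0.210 to 0.157 for other numbers), so the numbers may pair the libraries there. The reported values and calls come from fits without the replicate number, and a fit with it as a block was run as an alternative. In OVCAR3 the correlation was 0.0344 to 0.165 for the same number and -0.212 to 0.135 for other numbers. Alternatives were DESeq2 1.42.0, its size factors, no filter, an average count above 50, an adjusted p below 0.05, a 2-fold threshold, all libraries in 1 fit, the replicate block and leaving out each library. Coordinates are from GENCODE 44 and promoters from RefSeq (8 of 9 members matched).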

Additional observations from a re-analysis of the deposited data

Results flagged for a closer look

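LIG3 in OVCAR3 DMSO replicate 4 was at 4.64 log2 CPM, while the other 3 libraries of that group lay between 5.12 and 5.18. Its gap to the nearest library was 0.884 of the range of the group, above Dixon's critical value for 4 samples. It was the only flag of this kind in 36 groups of member values, and chance flags about 1 in 20 groups. XRCC1 also had its lowest CPM of that group in the same library.

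The olaparib effect on TNKS2 was higher in UWB1.289 than in OVCAR3 by 0.65 on the log2 scale, by a test of the difference itself over 16 libraries (edgeR adjusted p = 0.0467). Leaving out any of 4 libraries (UWB1.289 DMSO or olaparib replicate 4, OVCAR3 DMSO replicate 4 or OVCAR3 olaparib replicate 3) or the filter on low counts ended the call (edgeR adjusted p 0.101 to 0.111).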

How the results depend on the processing

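Among the values of single genes and of ratios under an alternative, 769 were kept, 23 changed sign, 21 lost and 6 gained a call. For single genes, kept means the same direction and call. For ratios under the replicate block or with 1 library left out, it means a shift smaller than the SD within groups. A ratio could therefore change sign and be kept, as for HPF1 to PARP1 under olaparib in OVCAR3 (-0.14 to 0.0324). Of the counts, 60 stayed within 1.5 times and 20 did not. With a 2-fold threshold added, the members called were 0 in OVCAR3, 0 in UWB1.289, 5 between the lines and 0 for the difference of the effects, and over the lists 3 in place of 19, 5 in place of 17, 27 in place of 60 and 6 in place of 15. At an adjusted p below 0.05, 1 member was called in UWB1.289, and without the filter on low counts 0 were for the difference. DESeq2 called 1, 2, 8 and 1 members, and over the lists 16, 13, 58 and 16 genes. It called 1 gene fewer in OVCAR3 in base excision, ADP-ribose removal and NAD, and 1 fewer in UWB1.289 in the other PARP genes, ADP-ribose removal, NAD and tankyrase partners. PARP1 was called between the lines with DESeq2's size factors (0.14, edgeR adjusted p = 0.0931) and without the filter (0.15, edgeR adjusted p = 0.0915). Leaving out 1 library at a time gave 0 to 1 members in OVCAR3, 1 to 2 in UWB1.289, 7 to 9 between the lines and 0 to 2 for the difference, where PARG was called without OVCAR3 olaparib replicate 4 and XRCC1 without UWB1.289 olaparib replicate 1. Log2 fold changes that changed sign in these fits ranged in OVCAR3 from -0.0497 to 0.12 for HPF1, -0.0594 to 0.10 for TNKS, -0.16 to 0.0546 for TNKS2 and -0.0891 to 0.0659 for XRCC1, in UWB1.289 from -0.15 to 0.0701 for PARG, -0.0724 to 0.0326 for PARP1 and -0.0943 to 0.0722 for PARP2, and for the difference from -0.33 to 0.11 for PARP3. The cause was not tested. The replicate block changed no call of a member. In UWB1.289 TNKS2 was at 0.58 (edgeR adjusted p = 0.0140) with the block and the genes called went from 1760 to 2370. PARP3 in OVCAR3, at 5 to 19 counts per library, is limited by depth.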
